A study of Mus musculus with 6 samples.

Results

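Matrix metalloproteases (MMPs), ADAMs (a disintegrin and metalloprotease), ADAMTSs (ADAMs with thrombospondin repeats) and their tissue inhibitors, the TIMPs, were followed in mouse kidney tubule cells that overexpressed HNF3α. Members were taken by gene symbol alone, as the genes named Mmp, Adam or Adamts followed by a digit and the genes Timp1 to Timp4, which gave 62 of the 29595 genes in the table: 21 MMPs, 20 ADAMs, 17 ADAMTSs and 4 TIMPs. The cells were TKPTS, an immortalised line from mouse proximal tubule. They had been transfected with the plasmid pcDNA3.1-Hnf3a-Flag, which encodes HNF3α, the product of Foxa1, with a Flag tag (3 libraries, called Hnf3a), or with pcDNA3.1-Flag, which lacks the insert (3 libraries, called pcDNA). RNA was taken 24 h later, and the sources name no other treatment of these cells. Both groups are transfected cultures of 1 cell line, and it is not stated whether the libraries of a group came from separate cultures, so the spread between them may be technical.

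MMPs and ADAMTSs are zinc proteases that cut collagens, proteoglycans and other matrix proteins outside the cell, some MMPs being held at the cell surface by a membrane anchor. Most ADAMs are membrane proteins that release, or shed, the outer parts of other membrane proteins, among them growth factors of the EGF family, cytokines and adhesion molecules. Most of these proteases are made with a prodomain that keeps them inactive until it is cut or displaced. The TIMPs block the active site with overlapping preferences. In the kidney these enzymes are known for turnover of tubular basement membrane and for ligand shedding after injury. RNA levels do not measure protease activity.

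Values below are given in the order of replicates 1, 2 and 3, the Hnf3a group first. Libraries held 60473818 to 71154667 estimated counts. The counts of Foxa1 itself were 80803, 77904 and 69508 against 2134, 2330 and 2416, a log2 difference of 4.97 ± 0.07 (SE, n = 3 per group), and plasmid and endogenous RNA cannot be told apart in it. All 5 epithelial markers (Epcam, Krt8, Krt18, Krt19 and Cdh1) were well above the detection floor of 12 counts in every library. Of 13 proximal tubule markers, 10 were in the table and 7 exceeded the floor in all 6 libraries, led by Pax8 at 27.5 to 31.4 FPKM, but the uptake receptor Lrp2 was low, at 17 to 53 counts and at most 0.0426 FPKM, and the glucose transporter Slc5a2 stayed at or below 3 counts. The other 3, Slc34a1, Slc5a12 and Slc22a6, had no entry under these symbols, so no level is given for them. Every gene with an entry had at least 1 count in total. In fibroblast and macrophage markers, Hnf3a replicates 2 and 3 stood apart from the other 4 libraries. All 8 fibroblast and all 8 macrophage markers exceeded the floor in each of them. In the other 4 libraries 0 to 3 fibroblast and 2 to 4 macrophage markers did. The summed fibroblast level was 65.2 and 81.9 CPM (counts scaled to the library total) in those 2 libraries against 0.48 to 1.52 in the others, and the summed macrophage level was 34.9 and 37.9 against 25.5 to 29.3. For this reason, counts of members are also given without these 2 libraries.

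Levels of the members ran from 0 to 158 FPKM. Adamts1, a secreted protease that cuts versican and aggrecan, was the most abundant by far. It had 156, 158 and 147 FPKM in the Hnf3a libraries and 147, 157 and 154 FPKM in the pcDNA libraries, and its mean of 153 FPKM was 43.5% of the summed FPKM of all members. Next came Timp2 (35.4 FPKM as the mean of all 6 libraries) and Adamts5 (35.1 FPKM), whose library ranges overlapped, then Timp3 at 26.0 FPKM. Adam10 (20.6 FPKM) and Adam9 (19.9 FPKM) also overlapped each other in range, as did Adam8 (10.8 FPKM) and Adam17 (10.4 FPKM), with Timp1 between these pairs at 15.1 FPKM. The top 5 members held 76.7% of the summed FPKM.

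**Figure D1:**
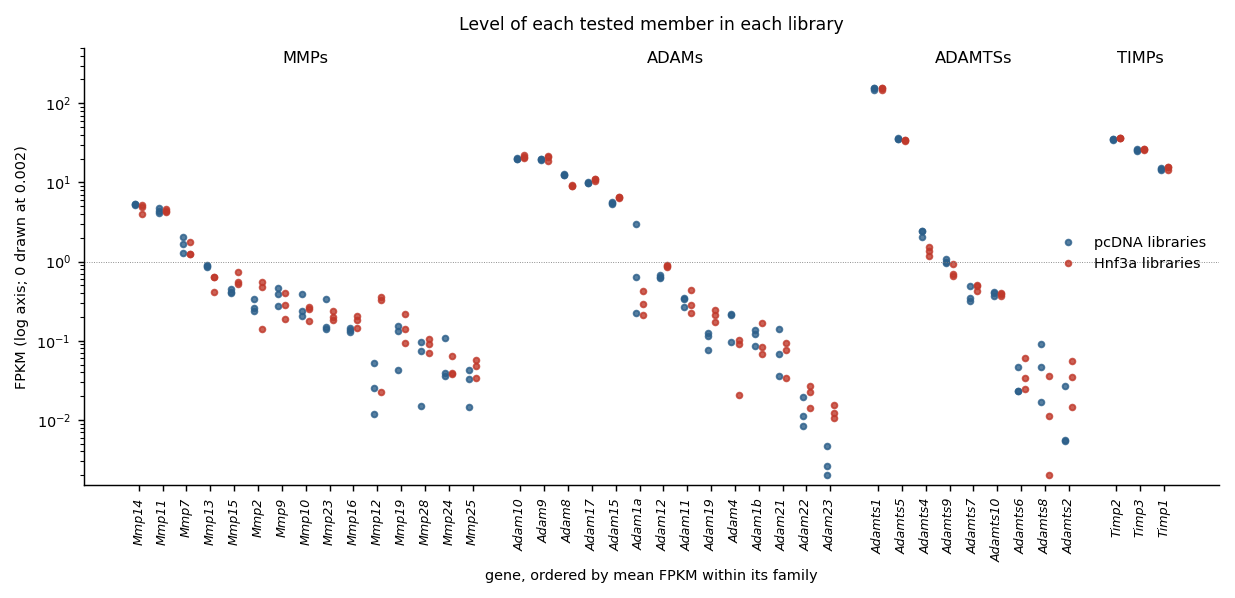
FPKM on a log axis for each of the 41 tested members in each of the 3 pcDNA (blue) and 3 Hnf3a (red) libraries, grouped by family and ordered by mean level. Adamts1 stands alone at the top with 147 to 158 FPKM. Adamts5, 3 TIMPs and 4 ADAMs also lie at 10 FPKM or more on average, and no MMP reaches that level.

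No MMP was abundant. Mmp14, the membrane-type collagenase that activates pro-Mmp2, averaged 4.98 FPKM, and Mmp11, a stromelysin activated inside the cell by furin, averaged 4.41 FPKM with an overlapping range. Mmp7, matrilysin, averaged 1.55 FPKM, and every other MMP was below 1 FPKM on average. Summed over a family, the MMPs gave 13.6 ± 0.799 FPKM (SD, 3 libraries) with HNF3α and 14.3 ± 0.436 FPKM with the empty plasmid, the ADAMs 70.0 ± 0.696 and 70.2 ± 1.13, the ADAMTSs 191 ± 6.5 and 193 ± 3.88, and the TIMPs 77.6 ± 0.925 and 75.4 ± 0.707. The MMP, ADAM and ADAMTS sums overlapped between groups. The TIMP sums did not, at 76.6 to 78.3 FPKM in the Hnf3a libraries and 74.6 to 75.8 FPKM in the pcDNA libraries, a difference for which no test was run.

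At the other end, 16 of the 62 members were above the floor in no library, 31 were above it in all 6, and 21 did not pass the low-count filter of the test. The untested members were 6 MMPs, 6 ADAMs, 8 ADAMTSs and Timp4. Mmp3, stromelysin, had 7 counts in 1 library and 0 in the other 5, and Mmp8, the neutrophil collagenase, had 9 and 4 counts in 1 library of each group. Timp4 had 3 counts in 1 library. Transcript records for Adam2, Adam28, Adam33 and Mmp21 in the table are only of the retained-intron type, so their 0 to 10 counts say little about the coding messenger RNA.

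Overexpression of HNF3α was compared with the empty plasmid to ask which of these genes differed 24 h after transfection. In the fit of all 17824 genes that passed the filter, 4 of the 41 tested members passed an adjusted p of 0.05. Adam8 and Adamts4 fell and Adam12 and Adam15 rose. The 4 called members are 9.76% of those tested, where 3.17% of all tested genes were called. By direction they were 2 members (4.88%) higher beside 1.04% of all genes, and 2 (4.88%) lower beside 2.13% of all genes. An unadjusted p under 0.05 was found for 13 members (31.7%) beside 13.5% of all genes. The 2 groups of libraries did not overlap in CPM for 14 members (34.1%) beside 19.1% of all genes. The median log2 difference of the tested members was 0.00, as was that of all tested genes. In this bulk RNA, fewer cells with a transcript and less of it per cell cannot be told apart. Without Hnf3a replicates 2 and 3, which leaves 1 Hnf3a library and assumes that it varies like the pcDNA libraries, 3 members passed, all lower: Adam8, Adamts4 and Mmp14.

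**Figure D2:**
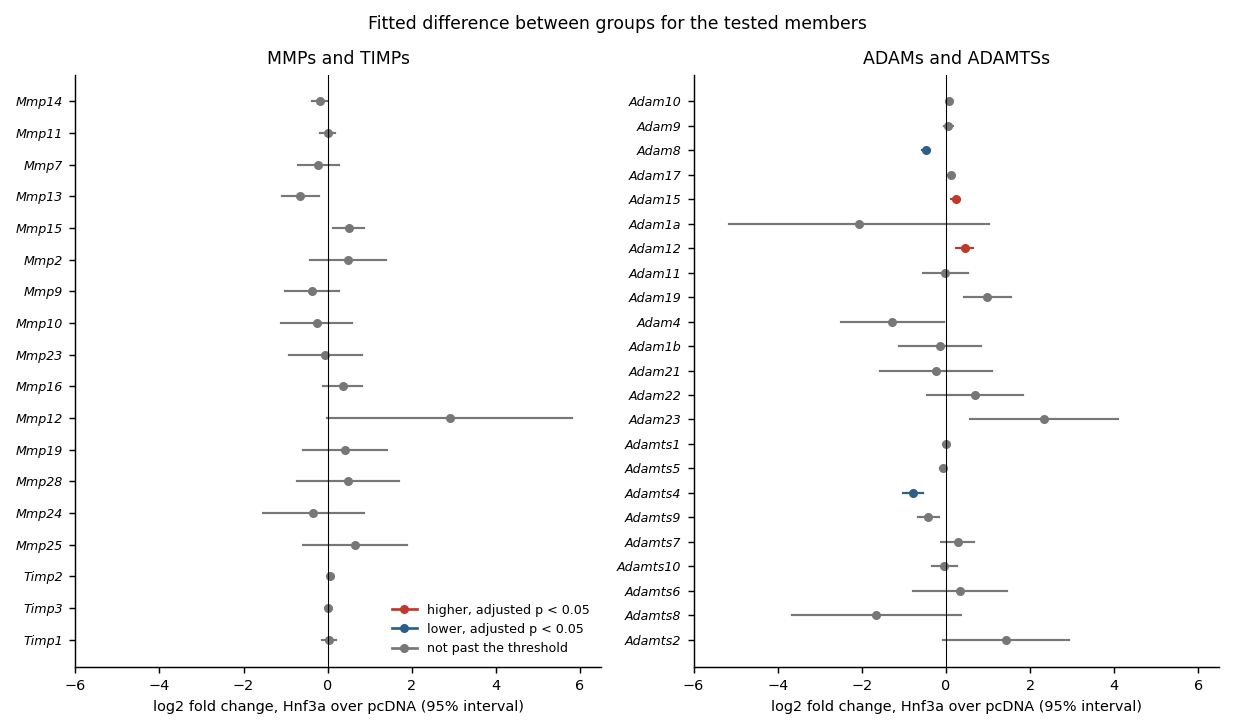
Fitted log2 fold change of the 41 tested members, Hnf3a over pcDNA, with 95% intervals; blue and red mark members lower or higher at an adjusted p under 0.05. The abundant members have narrow intervals near 0, and Adam8 and Adamts4 lie to the left and Adam12 and Adam15 to the right of the line with intervals that exclude it, as do those of 9 members that missed the threshold.

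Among the ADAMs, 3 of 14 tested members passed, 1 lower and 2 higher. Adam8, a shedding protease best known from leukocytes and also found in activated epithelium (ENSMUSG00000025473, chromosome 7, 139978932 to 139992562 on the minus strand, 22 exons), had 8.97, 9.28 and 9.08 FPKM in the Hnf3a libraries and 12.8, 12.4 and 12.5 FPKM in the pcDNA libraries. Every Hnf3a library lay below every pcDNA library, by far more than the spread within a group. Adam8 was 1.39-fold lower in the Hnf3a group, a log2 difference of -0.47 ± 0.04 (SE, n = 3 per group, adjusted p = 1.2e-05). It ranked 40 among all tested genes by p. The antisense gene Gm16201, which overlaps an Adam8 exon, had 36 to 70 counts in all libraries, against 3025 to 4226 for Adam8.

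Adam12 and Adam15 are both able to bind integrins through their disintegrin domain. Adam12, meltrin alpha (ENSMUSG00000054555, chromosome 7, 133883199 to 134232146 on the minus strand, 23 exons), was low, with 0.904, 0.89 and 0.859 FPKM in the Hnf3a libraries and 0.674, 0.628 and 0.636 FPKM in the pcDNA libraries. The groups did not overlap, and the level was 1.36-fold higher in the Hnf3a group (log2 difference 0.44 ± 0.09 SE, n = 3 per group, adjusted p = 0.0165). Adam15, metargidin (ENSMUSG00000028041, chromosome 3, 89338542 to 89349989 on the minus strand, 24 exons), had 6.54, 6.49 and 6.38 FPKM in the Hnf3a libraries and 5.47, 5.36 and 5.65 FPKM in the pcDNA libraries. It was 1.17-fold higher in the Hnf3a group, again without overlap (log2 difference 0.23 ± 0.05 SE, n = 3 per group, adjusted p = 0.0146). An antisense gene that overlaps an Adam15 exon, 4731419I09Rik, had 35 to 70 counts against 2278 to 3166 for Adam15. Both higher calls missed the threshold in limma on FPKM, where the adjusted p was 0.101 to 0.2 for Adam12 and 0.0541 to 0.0674 for Adam15. Adam12 also missed it without Hnf3a replicate 2, pcDNA replicate 2 or pcDNA replicate 3 (adjusted p = 0.068 to 0.0847), and Adam15 without Hnf3a replicate 2, pcDNA replicate 1 or pcDNA replicate 2 (adjusted p = 0.0735 to 0.0926). With Hnf3a replicates 2 and 3 both left out, the adjusted p was 0.13 for Adam12 and 0.084 for Adam15, at log2 differences of 0.49 and 0.25. The lower call of Adam8 passed in all 17 alternatives, with an adjusted p of 0.0025 or below.

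**Figure D3:**
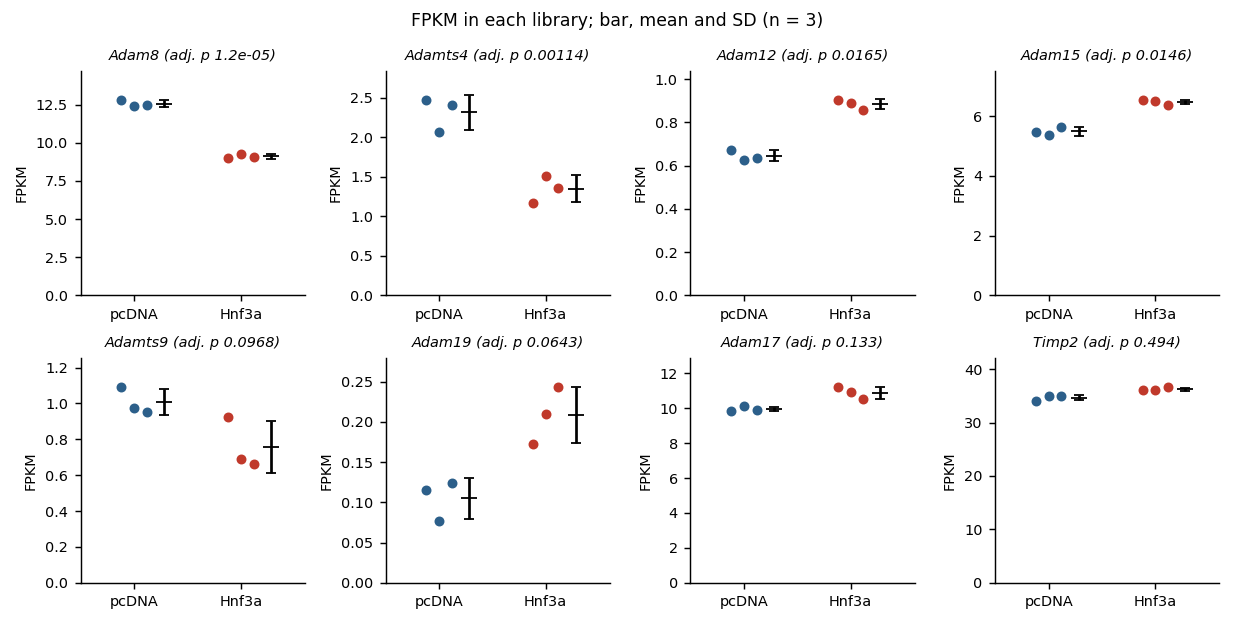
FPKM from 0 upward in each library for the 4 called members, for 3 members that missed the threshold (Adamts9, Adam19 and Adam17) and for Timp2; points are libraries and bars are the mean and SD of 3 libraries. In each of the 8 panels the 3 Hnf3a points do not overlap the 3 pcDNA points. All 8 are among the 14 of 41 tested members without overlap in CPM (34.1%), beside 19.1% of all tested genes. Only Adam8, Adamts4, Adam12 and Adam15 passed the adjusted threshold.

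The stretches of DNA upstream of 2 of these genes are shown because one fell and the other rose, and because the transfected protein belongs to the forkhead family. Each is the 250 bases before the start site in RefSeq (GRCm38.p6), read 5′ to 3′ on the gene's strand, with capitals for the forkhead letters TGTTTAC. The first is chr7:139992563-139992812 and the second chr3:89350029-89350278, both on the minus strand, and Adamts4 and Adam12 have no entry in the promoter table.
Adam8: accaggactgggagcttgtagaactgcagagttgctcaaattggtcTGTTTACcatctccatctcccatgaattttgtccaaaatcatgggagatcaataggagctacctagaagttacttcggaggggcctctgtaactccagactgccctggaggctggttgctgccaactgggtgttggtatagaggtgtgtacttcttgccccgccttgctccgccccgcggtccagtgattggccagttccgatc
Adam15: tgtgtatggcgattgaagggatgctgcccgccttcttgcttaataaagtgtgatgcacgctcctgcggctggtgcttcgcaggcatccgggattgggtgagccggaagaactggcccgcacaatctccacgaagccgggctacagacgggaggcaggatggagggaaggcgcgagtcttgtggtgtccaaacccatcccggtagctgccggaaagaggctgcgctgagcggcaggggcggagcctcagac
The Adam8 window held the letters once, starting 204 bases before the start site. The Adam15 window held neither TGTTTAC nor TGTTTGC, on either strand, and had 62.0% G and C against 52.8% for Adam8. Over windows of 300 bases, which add 50 bases after the start, TGTTTAC occurred in 3.65% of the 32851 promoters in the table and TGTTTGC in 5.07%. The 40 members with an entry had 45 windows. The first was in 5 of these, of Adam8, Adam19, Adamts13, Mmp10 and Mmp13, and the second was in that of Timp4. Of these genes, Adamts13 and Timp4 were not tested, and Adam19, Mmp10 and Mmp13 were tested but not called. That left Adam8 as called, where 9.76% of tested members and 3.17% of all tested genes were called. A match in letters is not evidence of binding, and its part in the Adam8 difference was not tested.

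The remaining ADAMs included the principal sheddases. Adam10, which sheds Notch and cadherins, had 22.0, 21.0 and 20.6 FPKM in the Hnf3a libraries and 19.7, 19.6 and 20.6 FPKM in the pcDNA libraries, a log2 difference of 0.08 (95% interval -0.0046 to 0.16, adjusted p = 0.41). Adam17, which sheds TNF and several EGF receptor ligands, had 11.2, 10.9 and 10.5 FPKM against 9.86, 10.1 and 9.89, without overlap, a log2 difference of 0.12 (0.04 to 0.20) that missed the threshold (adjusted p = 0.133). Adam9, another broad sheddase, overlapped between groups (log2 difference 0.06, -0.04 to 0.15, adjusted p = 0.662). For these 3 genes, intervals exclude changes as large as that of Adam8 in either direction.

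Adam19, meltrin beta, was much lower in level, with 90, 120 and 128 counts against 56, 40 and 65. Its groups did not overlap, the log2 difference was 0.98 ± 0.26 (SE), and the adjusted p was 0.0643. DESeq2 and edgeR on counts divided by 4 both called it. Adam23, which lacks a working protease site, had 15, 18 and 22 counts against 6, 0 and 4, so the pcDNA libraries were at or under the floor and no fold is given (adjusted p = 0.194). Adam4, a gene known from testis, had 4, 19 and 19 counts against 37, 18 and 40 (adjusted p = 0.347), and its groups overlapped.

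Adam1a, known for sperm fertility, had very uneven values, at 158, 127 and 235 counts against 324, 1649 and 122. One pcDNA library, replicate 2, set the fitted log2 difference of -2.06 (95% interval -5.15 to 1.03, adjusted p = 0.566), which was -0.48 without it. Adam1a shares exons with Mapkapk5 and Gm42878 on the same strand, and these were uneven too, Mapkapk5 at 1642, 3084 and 3195 against 2962, 1714 and 2947 counts and Gm42878 at 1560, 390 and 0 against 0, 21 and 257 counts. The way fragments were divided among the 3 genes is uncertain, and its part in these values was not tested. Over the 14 tested ADAMs, 8 had fitted values above 0 and 6 below, with a median log2 difference of 0.07.

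Of the 9 tested ADAMTSs, 1 passed the threshold. Adamts4, a protease of aggrecan and versican that is induced by inflammatory cytokines (ENSMUSG00000006403, chromosome 1, 171250421 to 171260637 on the plus strand, 9 exons), had 1.17, 1.51 and 1.36 FPKM in the Hnf3a libraries and 2.47, 2.06 and 2.41 FPKM in the pcDNA libraries. The highest Hnf3a library lay below the lowest pcDNA library. Adamts4 was 1.73-fold lower in the Hnf3a group, with a log2 difference of -0.79 ± 0.11 (SE, n = 3 per group, adjusted p = 0.00114), and it passed in all 17 alternatives. Whether strand was used in counting is not given in the sources used here, so a part for fragments from the opposite strand in the Adamts4 counts was not tested.

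Of the 7 ADAMTSs grouped as proteoglycan proteases, 5 were tested. Fitted values were below 0 for 4 of the 5, beside 8874 of all 17824 tested genes, and 1 of the 4, Adamts8, had only 0 to 31 counts. An unadjusted p under 0.05 was found for 3 (Adamts4, Adamts5 and Adamts9), beside 13.5% of all tested genes, and Adamts4 alone was called. The median log2 difference of the 5 was -0.42. The 2 most abundant of them did not show a change as large as that of Adamts4. Adamts1 had a log2 difference of 0.00 (95% interval -0.07 to 0.07, adjusted p = 0.991). Adamts5, the other main aggrecan protease, had 34.8, 34.6 and 33.5 FPKM in the Hnf3a libraries and 36.9, 35.5 and 35.5 FPKM in the pcDNA libraries, without overlap, and a log2 difference of -0.08 (-0.14 to -0.01, adjusted p = 0.264). Adamts1 and Adamts5 lie next to each other on chromosome 16, 53.1 kb apart with no protein-coding gene between them. With these 2 left out, the summed level of the other ADAMTSs was 3.04, 3.30 and 3.06 FPKM in the Hnf3a libraries and 4.38, 3.86 and 4.43 FPKM in the pcDNA libraries, a sum that Adamts4 leads and that was not tested.

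Adamts9, a versican protease with roles at the primary cilium, had 0.925, 0.688 and 0.66 FPKM in the Hnf3a libraries and 1.09, 0.977 and 0.952 FPKM in the pcDNA libraries. The groups did not overlap, though Hnf3a replicate 1 lay close to the pcDNA libraries, and the log2 difference was -0.42 ± 0.12 (SE, adjusted p = 0.0968). It passed in DESeq2 and without Hnf3a replicate 1, and was -0.12 without Hnf3a replicates 2 and 3. Adamts2, a procollagen peptidase, had 11, 27 and 39 counts against 4, 4 and 19 (log2 difference 1.42, adjusted p = 0.407), and Adamts8 had 4, 0 and 13 counts against 15, 6 and 31 (log2 difference -1.65, adjusted p = 0.498), with overlap in both. Adamts7, Adamts10 and Adamts6, the other tested members, had log2 differences of -0.04 to 0.33, and the family median was -0.04.

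Of the 15 tested MMPs, 0 passed the threshold in edgeR without a block, in DESeq2 or in limma on FPKM with all 6 libraries, and 3 had an unadjusted p under 0.05 in edgeR. With the replicate number as a block, Mmp12 passed (log2 difference 2.67, adjusted p = 0.017). Mmp13, the main interstitial collagenase of rodents, had 125, 136 and 81 counts against 163, 170 and 173, without overlap (log2 difference -0.65 ± 0.21 SE, adjusted p = 0.133). Mmp15, a membrane-type MMP, had 0.739, 0.546 and 0.529 FPKM against 0.449, 0.399 and 0.418, also without overlap (log2 difference 0.50 ± 0.17 SE, adjusted p = 0.179). Mmp14 had 3.94, 5.15 and 4.88 FPKM against 5.40, 5.34 and 5.14, where Hnf3a replicate 1 was the low library and replicate 2 overlapped the pcDNA group (log2 difference -0.19 ± 0.08 SE, adjusted p = 0.314). It was -0.43 (adjusted p = 0.0126) when that replicate stood alone for the Hnf3a group.

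The other MMPs had intervals that included 0. Mmp11 had 4.6, 4.25 and 4.42 FPKM in the Hnf3a libraries and 4.42, 4.08 and 4.72 FPKM in the pcDNA libraries, a log2 difference of 0.00 (95% interval -0.18 to 0.18). Mmp7 had 1.26, 1.26 and 1.77 FPKM against 1.28, 1.67 and 2.03 (log2 difference -0.22, -0.72 to 0.27). Mmp9, the gelatinase of leukocytes and stressed epithelium, had 73, 114 and 49 counts against 67, 123 and 100 (log2 difference -0.38, -1.03 to 0.26). Mmp10, stromelysin, had 23, 35 and 35 counts against 46, 31 and 27 (log2 difference -0.26, -1.11 to 0.59). The groups overlapped for all 4. Mmp16, a membrane-type MMP, had 0.204, 0.181 and 0.144 FPKM against 0.144, 0.136 and 0.130, with a log2 difference of 0.35 (-0.11 to 0.82), and of the 5 tested membrane-type MMPs 3 had fitted values above 0 and 2 below.

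Mmp12, the macrophage elastase, had the highest fitted log2 difference of any member, 2.90 (95% interval -0.02 to 5.82, adjusted p = 0.373). It rested on 2 libraries. The counts of Mmp12 were 13, 187 and 192 against 7, 28 and 14, so Hnf3a replicate 1 lay within the pcDNA range. Some macrophage genes followed the same split, with C1qb at 0, 57 and 75 counts against 0, 10 and 0, Lyz2 at 0, 265 and 273 against 16, 44 and 6, and C1qa at 0 in the 4 libraries other than Hnf3a replicates 2 and 3, where it had 27 counts each. The most abundant markers of that list did not, with Csf1r at 762, 853 and 836 counts against 690, 554 and 657 and Cd68 at 1021, 1156 and 1178 against 1047, 1074 and 993. Mmp2, the gelatinase made mainly by fibroblasts, had 35, 130 and 137 counts against 60, 84 and 59, beside Col1a1 at 33, 2694 and 3099 against 0, 16 and 5 counts. Without Hnf3a replicates 2 and 3 both signs turned, to -0.34 for Mmp12 (adjusted p = 0.933) and -0.97 for Mmp2 (adjusted p = 0.356). Mmp12 passed the threshold without Hnf3a replicate 1, at a log2 difference of 3.43 (adjusted p = 0.000218). The part of other cells or RNA in these values was not tested.

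**Figure D4:**
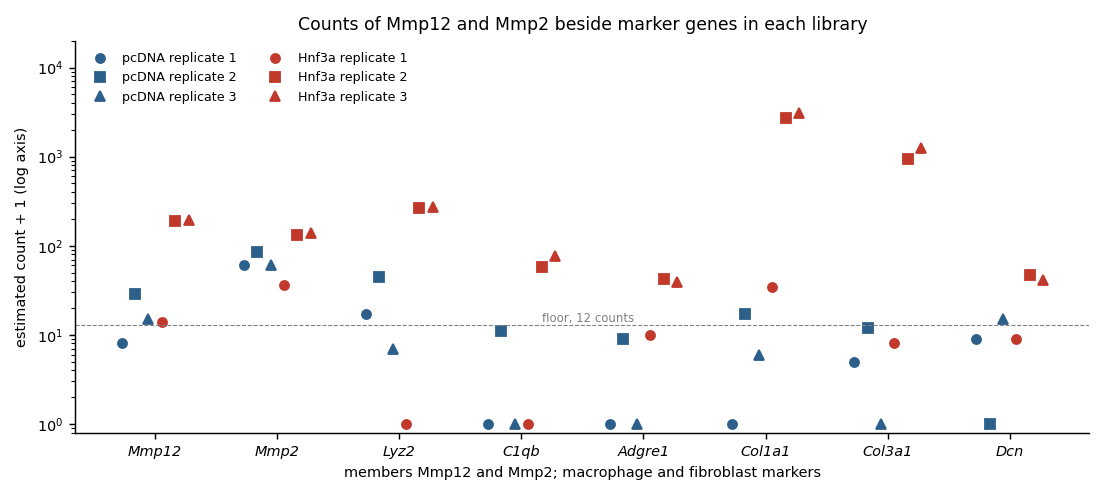
Estimated count plus 1 on a log axis for Mmp12 and Mmp2 and for macrophage (Lyz2, C1qb, Adgre1) and fibroblast (Col1a1, Col3a1, Dcn) markers in each library; circles, squares and triangles are replicates 1, 2 and 3, and the dashed line is the detection floor of 12 counts. Hnf3a replicates 2 and 3 (red squares and triangles) are the 2 highest libraries for all 8 genes. Hnf3a replicate 1 (red circles) lies among or below the pcDNA libraries for Mmp12, Mmp2, Lyz2, C1qb, Col3a1 and Dcn. It lies above them for Adgre1 and Col1a1. The most abundant macrophage markers, Csf1r and Cd68, did not follow this split and are not drawn.

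The low MMPs include a run of neighbours. Mmp13, Mmp12, Mmp3, Mmp10, Mmp8, Mmp27, Mmp20 and Mmp7 lie in this order within 427 kb of chromosome 9 (7272514 to 7699585), all on the plus strand. Only 4 of the 8 passed the filter, and the edgeR fit of all 6 libraries without a block called 0 of them. In that fit Mmp13 had an unadjusted p of 0.00713. AP-1 is a Jun and Fos factor long known to act on promoters of this group, and its letters TGANTCA were present in RefSeq windows of 6 of these 8 genes. The 6 stretches are shown, with the letters in capitals and 20 bases on each side, because they share a place close to the start site that the choice of genes by symbol did not use. They are chr9:7272459-7272505, chr9:7347310-7347356, chr9:7445756-7445802, chr9:7502259-7502305, chr9:7628116-7628162 and chr9:7692007-7692053 (GRCm38.p6, plus strand).
Mmp13: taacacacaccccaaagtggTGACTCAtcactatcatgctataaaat
Mmp12: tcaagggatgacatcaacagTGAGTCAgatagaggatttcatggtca
Mmp3: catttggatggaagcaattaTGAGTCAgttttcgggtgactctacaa
Mmp10: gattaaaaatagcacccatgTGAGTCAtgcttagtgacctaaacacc
Mmp20: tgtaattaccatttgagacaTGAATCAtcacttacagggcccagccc
Mmp7: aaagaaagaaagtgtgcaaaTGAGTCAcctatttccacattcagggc
The letters started 35 to 95 bases before the start site. They were in 6 of the 10 windows of the cluster and in 8 of the 45 windows of all members (17.8%), against 7.81% of all 32851 promoters. They were found once more each in Adam19 and Adam1b. Of the 6 cluster genes with the letters, Mmp7 was above the floor at 93 to 158 counts and Mmp13 at 81 to 173 counts in all libraries. Mmp3 had 0, 7 and 0 counts against 0 in each pcDNA library, and Mmp20 had 0, 0 and 0 against 4, 7 and 12. Neither was above the floor in any library, so the letters were held by genes of very different level.

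In summed FPKM the TIMPs were above all ADAMs together, and 0 of the 3 tested passed in edgeR, DESeq2 or limma, none having an unadjusted p under 0.05 in edgeR. Timp1, the inducible inhibitor, had 15.9, 14.3 and 15.7 FPKM in the Hnf3a libraries and 15.3, 14.4 and 14.8 FPKM in the pcDNA libraries, with overlap (log2 difference 0.04, 95% interval -0.13 to 0.20, adjusted p = 0.907). Timp2, which also takes part in the activation of pro-Mmp2 by Mmp14, had 36.0, 36.1 and 36.6 FPKM against 34.1, 34.9 and 35.0. These groups did not overlap, and the log2 difference was 0.06 (-0.01 to 0.12, adjusted p = 0.494). Timp3, which is bound to matrix and inhibits Adam17 and the aggrecan proteases, had 26.4, 26.1 and 25.7 FPKM against 26.3, 25.3 and 26.0 (log2 difference 0.00, -0.07 to 0.07, adjusted p = 0.991). For each of the 3, the interval excludes a difference as large as the one in Adam8.

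Other genes of the same pathways were counted from 6 lists. Of 16 tested regulators of these proteases, 1 passed. Rhbdf1, an inactive rhomboid that carries Adam17 to the cell surface, had 21.5, 21.7 and 20.8 FPKM in the Hnf3a libraries and 24.2, 24.4 and 24.7 FPKM in the pcDNA libraries, and it fell by 0.21 on the log2 scale (SE 0.03, adjusted p = 0.00272). Without Hnf3a replicates 2 and 3 the log2 difference was -0.19 (adjusted p = 0.0591). Its relative Rhbdf2 had a log2 difference of -0.11 (adjusted p = 0.246), and the proprotein convertase Furin, which removes prodomains, had 0.13 (adjusted p = 0.189). The inhibitor Reck had 26 to 52 counts and a log2 difference of 0.36 (adjusted p = 0.793). Of 8 tested genes of plasminogen activation, Plau, the urokinase that starts the cascade leading to MMP activation, passed. It had 210, 214 and 201 FPKM against 179, 181 and 171, above every member in level, and rose by 0.23 on the log2 scale (SE 0.03, adjusted p = 0.00145), while its receptor Plaur had a log2 difference of -0.17 (adjusted p = 0.15).

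Of 3 tested genes of the astacin list, Pcolce, a secreted enhancer of procollagen processing, passed at 3.47, 4.16 and 3.91 FPKM against 2.97, 2.95 and 3.09 (log2 difference 0.35 ± 0.08 SE, adjusted p = 0.034). It is also known from fibroblasts, was highest in Hnf3a replicates 2 and 3, and had a log2 difference of 0.21 (adjusted p = 0.453) without them. It also missed the threshold in limma and without any single library other than Hnf3a replicate 1 (adjusted p = 0.0864 to 0.179). Of the 6 tested EGF receptor ligands that ADAMs shed, 0 passed in edgeR or DESeq2 and 0 had an unadjusted p under 0.05, with Hbegf, the most abundant, at 25.9 to 26.1 against 24.5 to 27.1 FPKM. For the ADAMTS-like proteins the count was 0 of 5, with 1, Thsd4, at an unadjusted p under 0.05 (log2 difference -0.21), and for proteoglycan substrates 0 of 2, with none at that level. Aggrecan itself (Acan) had 0, 4 and 10 counts against 0 in each pcDNA library, and versican (Vcan) 0.0406 to 0.0814 against 0.0673 to 0.0960 FPKM, so the main substrates of Adamts4 were scarcely expressed in these cells.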

How the data were processed

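RNA sequencing of 6 libraries of TKPTS cells, 3 per plasmid, was read from a single table in which the authors deposited an estimated count and an FPKM value for each gene and library. The submitters' processing notes name cutadapt 1.9, HISAT2 2.0.4, UMI-tools, StringTie 1.3.4d, DESeq2, edgeR and the build mm10, without their roles. The annotation and the use of strand are not given in the sources used here. Polyadenylated RNA was sequenced from both ends.

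Members were selected by symbol. Members, lists and named genes (every called member, the most abundant of each family, those with an unadjusted p under 0.05 or a log2 difference of at least 1, a fixed set of well-known members and called list genes) were chosen with earlier results of these data known. The estimated counts were whole numbers. More genes had exactly 4 counts than 3 or 5, so the floor was set at 12 counts, about 3 fragments (0.169 to 0.198 CPM); it covers counting error only. Genes were filtered with filterByExpr, scaled by TMM and tested two-sided with edgeR 4.0.16 (quasi-likelihood, robust) in R 4.3.3, with Benjamini-Hochberg adjustment over all genes tested and a threshold of 0.05. Adjusted p-values in the text are from this fit unless another is named, and standard errors and 95% intervals derive from it. Levels are FPKM. An exact permutation test of 3 against 3 libraries cannot give a p below 0.1. P-values weigh the group difference against the spread between these libraries, estimated with information from all genes tested. If that spread is technical, they do not speak for separate cultures. Alternatives were DESeq2 1.42.0, limma 3.58.1 with trend on log2(FPKM + 0.1), + 1 or + 0.01, other scalings and filters, counts divided by 4, a replicate block, and leaving out libraries. The procedure was tested on simulated data. Of 62 members, 54 had the same coordinates in GENCODE vM21 (GRCm38), which also gave exons and overlaps. RefSeq promoters were matched for 40 members. An NF-κB consensus, searched after the data were seen, was in 4.51% of promoters and in those of Adam19, Adam1b and Mmp25. A planned search of protein sequences was not run. Values of some neighbouring and list genes are not reported here.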

Additional observations from a re-analysis of the deposited data

How the results depend on the processing

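Adam8 and Adamts4 were lower and past the threshold in all 17 alternatives; Adam12 passed in 9 of the 16 that tested it and Adam15 in 10 of 17, always higher. Called members numbered 2 (0 higher) in each limma fit, and 1 was higher with at least 1 FPKM required. Leaving out single libraries gave 2 to 6 called members (0 to 3 higher, 2 to 3 lower) and 263 to 643 called genes (64 to 253 higher, 199 to 390 lower), and it was 2 members without Hnf3a replicate 2 or without pcDNA replicate 2. For limma with pseudocounts of 0.1, 1 and 0.01, called genes numbered 236, 231 and 245 (57, 53 and 65 higher; 179, 178 and 180 lower) against 565 (186 and 379) in edgeR. DESeq2 called 322 genes higher. Without Hnf3a replicates 2 and 3, 322 genes were called (90 higher, 232 lower), with 0 members higher. The causes were not tested.

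The ADAM median was 0.0132 in limma with a pseudocount of 1, and 0.0638 to 0.12 without single libraries. The MMP median was 0.36 with all genes of at least 1 count, -0.19 with at least 1 FPKM, 0.0145 to 0.19 without single libraries and -0.37 without Hnf3a replicates 2 and 3. The median of all members was 0.0605 with all genes of at least 1 count, 0.0452 in limma with a pseudocount of 0.01, and 0.0096 to 0.0724 without single libraries. Called regulators numbered 2 in DESeq2 and with counts divided by 4, 1 to 4 without single libraries and 0 without Hnf3a replicates 2 and 3; plasminogen genes numbered 2 in DESeq2 and without those replicates; astacin genes numbered 0 in limma, without those replicates, and 0 to 1 without single libraries.

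No pairing by replicate number was seen, as same-numbered libraries correlated at -0.04, -0.01 and 0.01 after removal of group means. Whether same-numbered libraries were handled together was not tested. With the replicate number as a block, 6 members were called (Adamts9 and Mmp12 added), 0 astacin genes were called, and Mmp11 was 0.0004.

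Signs turned in 7 members, none of them past the threshold in the edgeR fit of all libraries without a block. Mmp11 was 0.0003 with DESeq2 size factors, 0.0104 with total-count scaling, 0.0024 for all genes, 0.0043 with at least 1 FPKM, 0.0002 in DESeq2, 0.0078, 0.0062 and 0.0080 in limma, -0.0541 to 0.0517 without single libraries and 0.0656 without Hnf3a replicates 2 and 3. The last setting also turned Adam9 (-0.0515), Mmp12 (-0.34) and Mmp2 (-0.97). Without single libraries Adamts1 ranged from -0.0213 to 0.0339, Mmp10 from -0.43 to 0.0461 and Timp3 from -0.0142 to 0.0162. Depth limits most the 31 members that were not above the floor in every library.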
